A study of Parhyale hawaiensis with 10 samples.

Results

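The regions described here were stretches of the genome of the amphipod crustacean Parhyale hawaiensis in which accessible chromatin was called in every leg library and in the whole embryo at stage 24, but in neither the embryo at stage 20 nor that at stage 23. They numbered 2228 of the 280946 regions obtained by merging the peaks of the 9 nuclei libraries, and of the 15184 regions called in all 6 leg libraries (leg-wide regions). They were chosen by the presence or absence of a deposited peak overlapping the region by at least 1 bp, on scaffolds whose peaks reached at least 10000 bp. Their calls in those 9 libraries are therefore a description of the choice and carry no test.

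The assay was ATAC-seq, in which the Tn5 transposase inserts sequencing adapters where DNA is not covered by nucleosomes or other proteins. The study profiled whole embryos, developing legs and adult legs of the Chicago-F inbred line. The whole embryos were 1 embryo at stage 20, 1 at stage 23 and 1 at stage 24, with no replicates. Adult legs (3 libraries) were uninjured T4 and T5 legs, and embryonic legs (3 libraries) were T4 to T8 legs gathered from pooled embryos at stages 25 to 26. Age and leg identity thus differed together and cannot be told apart. An additional library came from naked DNA of a whole adult, treated with the transposase in place of nuclei. Whole embryos and embryonic legs were lysed and dissociated by different protocols, so that preparation and tissue cannot be told apart either. Nothing in the labels shows that replicates were separate animals, and a p-value here measures the spread of these libraries, which may be technical.

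Accessible chromatin marks promoters and distal cis-regulatory elements, the short sequences at which transcription factors bind to control when and where a gene is transcribed. In Parhyale the thoracic legs grow out of the body wall as buds during embryogenesis, elongate and become divided into segments, and after hatching they grow through moults and can regenerate. A whole embryo holds many tissues besides legs, so a peak that is missing there can be a site closed in every cell or a site open in too few cells to be called.

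The files name no genes and no annotation was used here, so the regions are identified by scaffold and position alone, and no sequence is shown. The stage 20, 23 and 24 lists held 60435, 56606 and 119994 peaks. Background pileup was the most frequent expected number of fragments over a base among the sampled rows of a list. At these stages it was 0.404, 0.233 and 0.555. It was 0.252 to 0.482 in adult legs and 0.394 to 0.526 in embryonic legs. The lists hold no read totals, so it is only a rough guide to relative depth. A q-value of at most 1e-05 was reached by 27.0%, 27.4% and 62.7% of the peaks at stages 20, 23 and 24. The narrowest peak at stage 24 was exactly 200 bp wide, against 137 and 149 bp at stages 20 and 23. The part of depth and of these list properties in the choice of regions was not tested.

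Of all leg-wide regions, 14.7% (2228 of 15184) were called at stage 24 and not earlier. Regions called at all 3 stages were the largest class, at 7356 or 48.4%. A further 2299 (15.1%) were called at stages 23 and 24, 1198 (7.89%) at stages 20 and 24, and 1117 (7.36%) in no whole embryo. Stage 23 alone gave 346 regions and stage 20 alone 197, so that a single call in a whole embryo was most often a call at stage 24, the longest of the 3 lists.

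**Figure D1:**
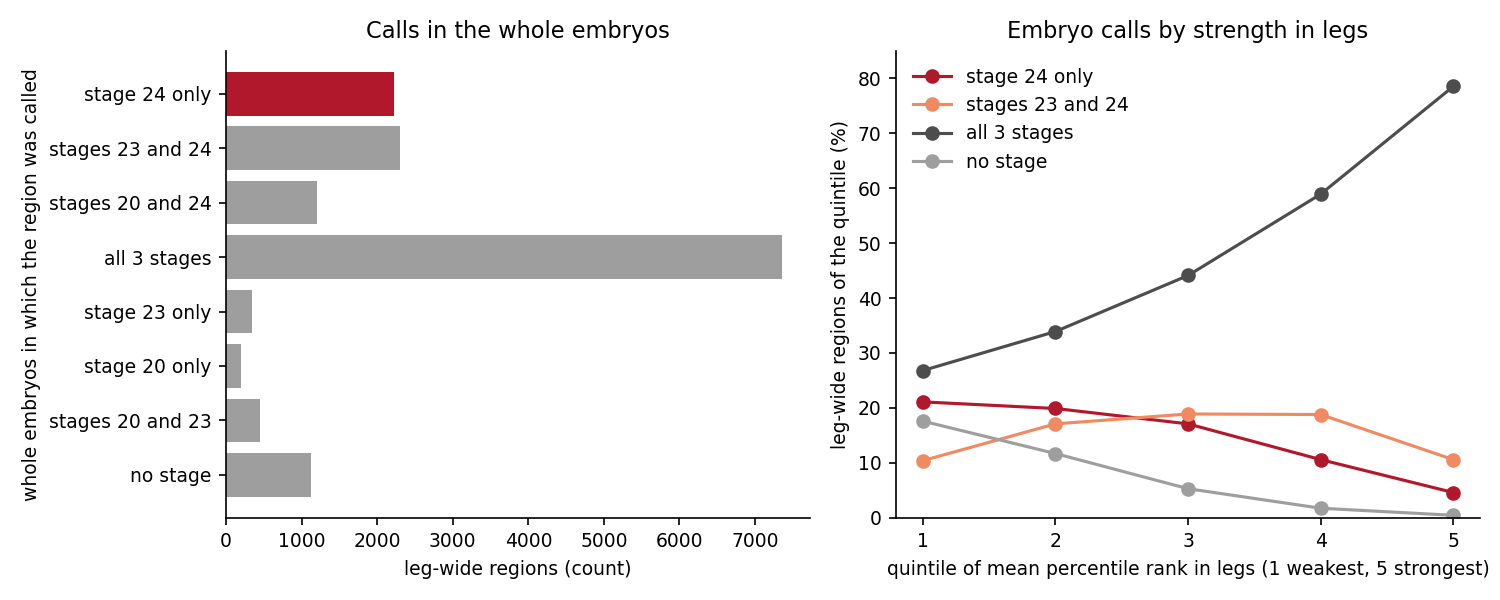
Left, number of leg-wide regions by the whole embryos in which they were called, with the 2228 regions of stage 24 only in red. Right, share of leg-wide regions with each pattern of embryo calls (%) in quintiles (5 groups of equal size) of mean percentile rank in legs; the share called only at stage 24 was 21.1% in the weakest quintile and 4.61% in the strongest.

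The choice rested on thresholds in the lists. The lowest −log10 q of a chosen region was 1.32 at stage 24 and 1.31 in a leg library, both next to the limit of the lists (a q-value of 0.05). The smallest gap to a stage 20 or stage 23 peak was 6 bp, 40 regions had such a peak within 500 bp and 138 within 1000 bp, while the median gap was 8954 bp. On the scaffold limit, the smallest reach of a chosen scaffold was 10598 bp, and the 76 regions left out by it lay on scaffolds of up to 9840 bp. With a q-value limit of 1e-05 in every list the rule gave 2605 regions, of which 1103 were among the 2228, and these 1103 (49.5%) were the regions called that firmly in all 7 lists. All of the other 1502 overlapped a stage 20 or stage 23 peak of lower confidence in the full lists. With the 48324 strongest peaks of every nuclei list it gave 1259 regions, of which 1129 were among the 2228.

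At stage 24 their deposited fold, the authors' enrichment of the summit over the expected pileup, ranged from 2.46 to 22.1 with a median of 6.80 (quartiles 5.28 to 9.25), against a median of 5.79 over all stage 24 peaks and 9.87 over the leg-wide regions called there. The fold of a list is the authors' own value and is not on a common scale with that of another list. The whole-number summit pileup recovered from fold and p-value had a median of 15 fragments and ran from 4 to 86. Among leg-wide regions called at stage 24, those called only there made up 35.7% of the weakest quintile by stage 24 fold (2.46 to 6.25) and 3.52% of the strongest quintile (14.5 to 34.8). Of the 2228 regions, 109 were in the top 5% of the stage 24 list by fold. This is near the 5% of all its peaks that lie there by definition.

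In legs the median fold of the same regions was 9.39, 7.61 and 7.15 in adult legs 1 to 3, against 11.3, 8.82 and 8.48 over all leg-wide regions. In embryonic legs 1 to 3 it was 9.64, 9.72 and 11.5, against 12.0, 12.1 and 13.9. The median summit pileup was 29, 17 and 13 fragments in adult legs and 24, 23 and 33 in embryonic legs. A q-value of at most 1e-05 was reached by 73.8% to 93.3% of the regions in adult legs and by 92.3% to 96.9% in embryonic legs, against 80.7% at stage 24. In each library the regions had a lower median than leg-wide regions as a class. It was higher than that of the whole list (5.10 to 5.62 in adult legs and 5.79 to 6.34 in embryonic legs). Each region had to be called in all 6 leg lists and at stage 24. A higher median than the whole list may follow from this choice, which was not tested.

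To compare libraries, each leg-wide region was given its percentile rank by fold among the same 15184 regions in each leg library, from 0 for the weakest to 100 for the strongest. The median rank of the stage 24 regions, averaged over the 6 leg libraries, was 37.8, against 49.4 for regions called at stages 23 and 24, 61.9 for those called at all 3 stages and 26.7 for those called in no whole embryo. Their share fell along this scale. From the weakest to the strongest quintile they made up 21.1%, 19.9%, 17.1%, 10.6% and 4.61% of leg-wide regions, which was 642, 605, 519, 322 and 140 regions. Regions called at all 3 stages went the other way, at 26.8%, 33.9%, 44.1%, 58.9% and 78.5%. The stage 24 fold of the regions was also larger where their leg rank was higher, with medians of 5.47, 6.68, 7.24, 9.23 and 11.7 over the same quintiles.

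The 10 regions with the highest mean leg rank are the clearest cases of strong leg-wide accessibility with no call before stage 24. None of them overlapped a naked DNA peak. Over the stage 24 regions in the strongest quintile of leg rank 13.6% did, so none among 10 is not unusual. The first was phaw_50.282861b:43084303-43084700, with folds of 31.5, 27.6 and 24.0 in adult legs and 31.0, 32.6 and 28.6 in embryonic legs. It had 18.5 at stage 24, and its nearest stage 20 and stage 23 peaks lay 8595 and 19057 bp away. It stood near the top of every leg library, with a mean rank of 99.6 ± 0.133 in adult and 98.7 ± 1.44 in embryonic legs (SD, n = 3 each).

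The next was phaw_50.283867d:5224402-5224810, with folds of 29.9, 27.1 and 24.9 in adult legs and 26.4, 29.4 and 32.1 in embryonic legs, and 19.5 at stage 24. Its nearest earlier peaks were far off, at 158497 bp for stage 20 and 111043 bp for stage 23. The fifth, phaw_50.282275a:19758700-19759151, had folds of 20.6, 20.8 and 20.7 in adult legs and 19.6, 25.7 and 35.5 in embryonic legs. At stage 24 its fold was 9.17, the lowest of these 10 regions. Its 6 leg summits lay within 4 bp of each other, and those of the other 9 regions within 6 to 19 bp.

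In 3 of these 10 regions the ranks of the leg types did not overlap. Over all leg-wide regions, 13.5% ranked higher in every adult leg and 16.0% in every embryonic leg, so this count is not unusual. At phaw_50.283867d:5224402-5224810 the ranks were 99.5 ± 0.0166 in adult and 98.5 ± 0.871 in embryonic legs, so that adult legs lay higher by 1.0 rank. The eighth region, phaw_50.283869b:8301008-8301365, had folds of 18.9, 18.6 and 13.5 in adult legs and 27.2, 28.3 and 27.1 in embryonic legs, and ranks of 87.7 ± 5.48 and 97.4 ± 1.77 (SD, n = 3 each). The last, phaw_50.283815c:13366382-13367034, had folds of 19.8, 13.8 and 14.7 in adult legs and 27.2, 30.2 and 28.3 in embryonic legs. Its summits were covered by 78, 29 and 24 fragments in adult legs and by 105, 102 and 125 in embryonic legs. Both of these ranked higher in every embryonic leg.

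A further set was named for the highest fold at stage 24, from 20.3 to 22.1. Of its 6 regions, the first and second were also among the 10 strongest in legs, phaw_50.283828b:19615429-19615922 at 22.1 and phaw_50.000135f:29338421-29338826 at 21.9. The fifth, phaw_50.020523a:8424773-8425211, differed from them in legs. It had 20.8 at stage 24 from 63 fragments, and folds of 11.7, 14.7 and 11.8 in adult legs and 11, 14.4 and 10.7 in embryonic legs, and ranks of 70.1 ± 15.8 and 46.4 ± 14.3 (SD, n = 3 each). The fourth and the sixth, phaw_50.283868d:8250322-8250870 and phaw_50.283829a:10104698-10105292, overlapped a naked DNA peak with a fold of 2.28 and 2.78.

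**Figure D2:**
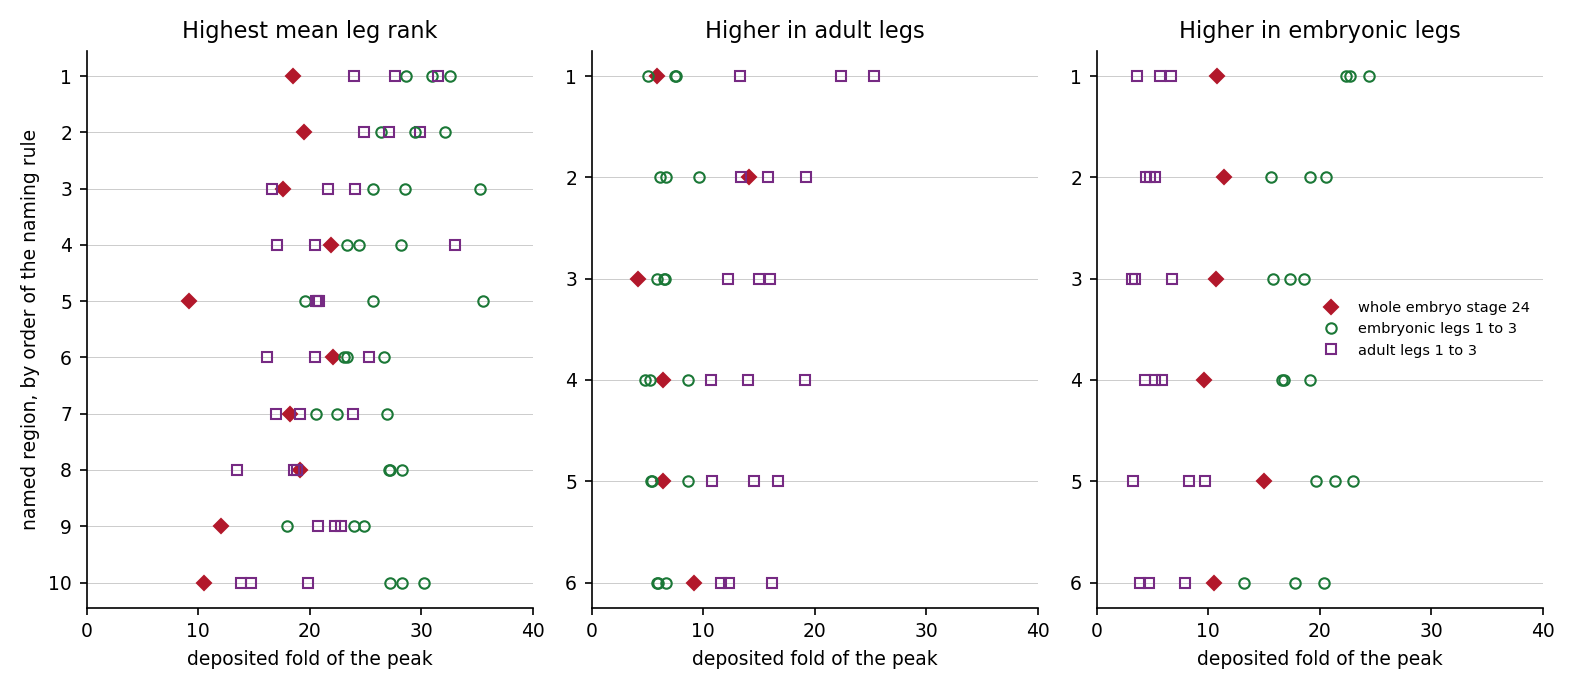
Deposited fold (x axis) of 22 named regions, numbered from the top of each panel in the order of the naming rule; red diamonds are the stage 24 embryo, green circles the 3 embryonic leg libraries and purple squares the 3 adult leg libraries. In the left panel both leg types lie at high folds. In the middle and right panels the adult and embryonic libraries do not overlap, and the naming rule required this of their ranks. Folds of different lists are not on a common scale.

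Naked DNA was not used in the choice, and it measures where the transposase cuts in the absence of chromatin. Of the stage 24 regions, 283 or 12.7% (11.4% to 14.1%, 95% Wilson interval) overlapped one of its peaks, against 28.6% of all leg-wide regions and 31.3% (30.5% to 32.1%) of the other leg-wide regions. The share was 37.0% (35.9% to 38.1%) for regions called at all 3 stages, 17.0% (15.5% to 18.6%) for those of stages 23 and 24, 14.0% (12.1% to 16.1%) for those of no stage and 77.2% (73.1% to 80.9%) for those of stages 20 and 23. Intervals cover counting error only, and regions are not independent replicates. The choice required no peak at stages 20 and 23, and of the peaks in those lists 30.1% and 26.2% overlapped naked DNA, against 15.6% at stage 24. The part of this in the low share was not tested.

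With a q-value limit of 1e-05 in every list, naked DNA included, the share was 1.31%, against 12.6% of all leg-wide regions. That share is over the 2605 regions of the stricter rule, of which 1103 are among the 2228, and 19.6% of naked DNA peaks pass the limit. A naked DNA peak lay at the median leg summit in 163 regions, 7.32% (6.31% to 8.47%), against 22.0% of all leg-wide regions. Where a naked DNA peak was present, its median fold was 2.65 in the stage 24 regions, against 5.89 in regions of all 3 stages and 3.93 over all leg-wide regions. Among the stage 24 regions the share hardly moved with strength in legs, at 12.3%, 11.9%, 13.5%, 13.4% and 13.6% from the weakest to the strongest quintile. Among regions of all 3 stages it was 73.1%, 49.8%, 32.0%, 28.5% and 28.4% over the same quintiles.

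**Figure D3:**
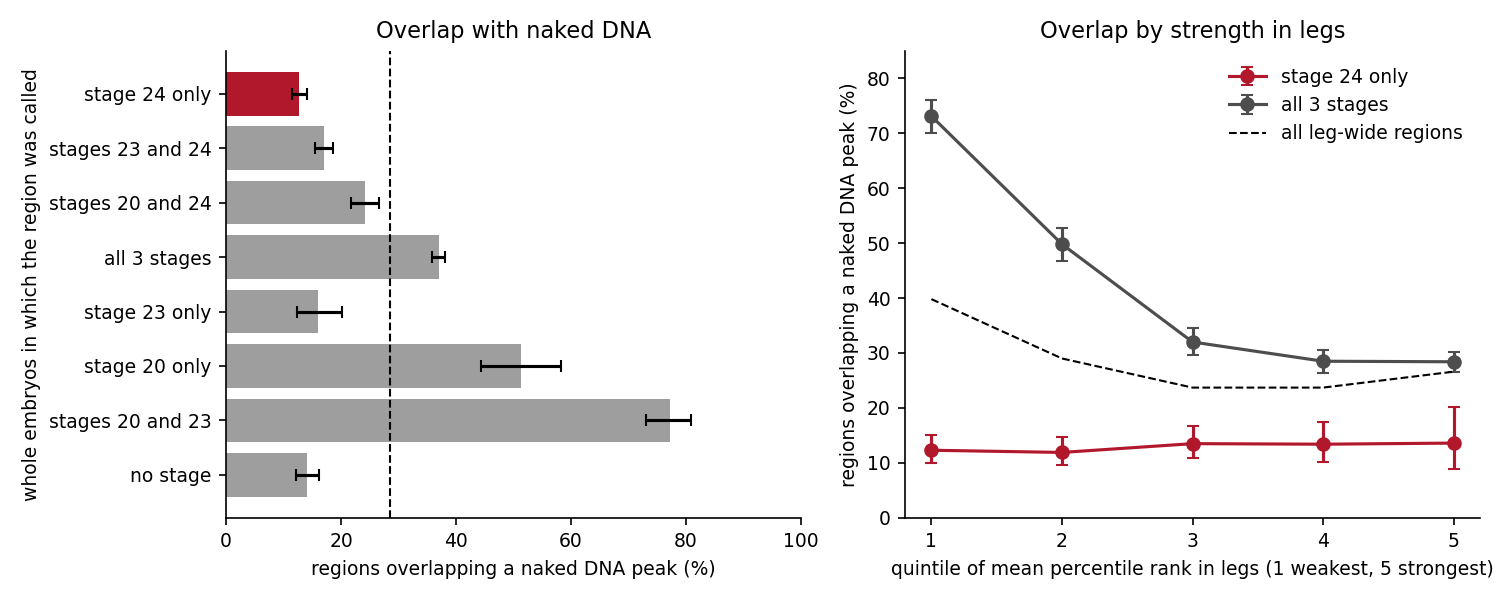
Share of leg-wide regions overlapping a naked DNA peak (%), left by the whole embryos in which the region was called and right by quintiles of mean percentile rank in legs; error bars are 95% Wilson intervals and the dashed lines all leg-wide regions. The regions of stage 24 only stayed between 11.9% and 13.6% in every quintile.

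As a class the regions ranked about as high in adult as in embryonic legs, within the spread of the libraries, whereas individual regions differed widely. The median rank of the regions was 36.6, 39.8 and 37.7 in adult legs 1 to 3 and 36.1, 35.5 and 37.6 in embryonic legs 1 to 3, so that adult leg 1 lay within the embryonic range. The means were 38.0 ± 1.60 in adult and 36.4 ± 1.07 in embryonic legs (SD, n = 3 each), a difference of 1.61. By exact permutation over libraries, two-sided, p was 0.2, where 0.1 is the smallest value that 3 libraries against 3 allow. In the alternatives the regions were chosen and ranked anew. The difference was −0.83 without adult leg 2 (3216 regions) and −0.91 without adult leg 3 (3192 regions). A q-value limit of 1e-05 gave −0.38 (2605 regions) and lists of equal length −0.85 (1259 regions). These changes of sign thus cannot be assigned to the ranks of the 2228 regions in a single library.

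Regions called at stages 23 and 24 ranked at 49.8 ± 4.44 in adult and 51.3 ± 0.922 in embryonic legs, a difference of −1.48 (mean ± SD of 3 libraries; p = 0.9 by exact permutation, two-sided). Regions called in no whole embryo ranked at 31.7 ± 4.56 in adult and 18.6 ± 1.84 in embryonic legs, a difference of 13.02, and regions of all 3 stages at 62.5 ± 1.12 and 65.1 ± 0.491, a difference of −2.64 (mean ± SD of 3 libraries; for both, p = 0.1 by exact permutation, two-sided, which is the smallest attainable). The differences between classes were not tested against each other, and ranks within a library are not independent between classes.

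Single regions were called higher in a leg type when all 3 of its ranks lay above all 3 of the other type. This held for adult legs in 337 of the 2228 regions, 15.1% (13.7% to 16.7%), against 13.5% of all leg-wide regions. It held for embryonic legs in 326 regions, 14.6% (13.2% to 16.2%), against 16.0% of all leg-wide regions. Both shares are near the background, so they say little that is particular to the stage 24 regions. With 1 leg library left out and the regions chosen anew, the shares were higher. For adult legs they reached 24.2% without adult leg 1 (23.6% over all leg-wide regions). For embryonic legs they reached 22.7% without adult leg 2 (22.9%). In the other 1565 regions (70.2%) the leg types overlapped. The rank difference (adult minus embryonic) had quartiles of −11.98 and 14.96 and ran from −72.76 to 77.37. The median SD of a region's rank was 14.1 among adult and 7.89 among embryonic legs, so a difference of 10 ranks is within the spread of the adult libraries.

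Regions higher in adult legs had lower folds at stage 24 than regions higher in embryonic legs. The median stage 24 fold was 6.15 for the regions higher in adult legs, 7.96 for those higher in embryonic legs and 6.82 where the leg types overlapped, with median summit pileups of 12, 17 and 15 fragments. In quintiles of stage 24 fold, from the weakest to the strongest, the regions higher in adult legs made up 21.3%, 16.4%, 16.8%, 13.0% and 8.07%, and those higher in embryonic legs 10.8%, 12.8%, 11.7%, 16.9% and 21.1%. The median rank difference, adult minus embryonic, was 7.34 in the weakest and −5.29 in the strongest of these quintiles. Spearman's rho of stage 24 fold with the rank difference was −0.21 over the 2228 regions, a description across regions that share their libraries. The shares by stage 24 fold were not computed for other leg-wide regions. Whether this trend is particular to the stage 24 regions was therefore not tested. Both directions overlapped naked DNA about as often, at 13.6% (10.4% to 17.7%) for adult and 12.6% (9.41% to 16.6%) for embryonic legs.

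**Figure D4:**
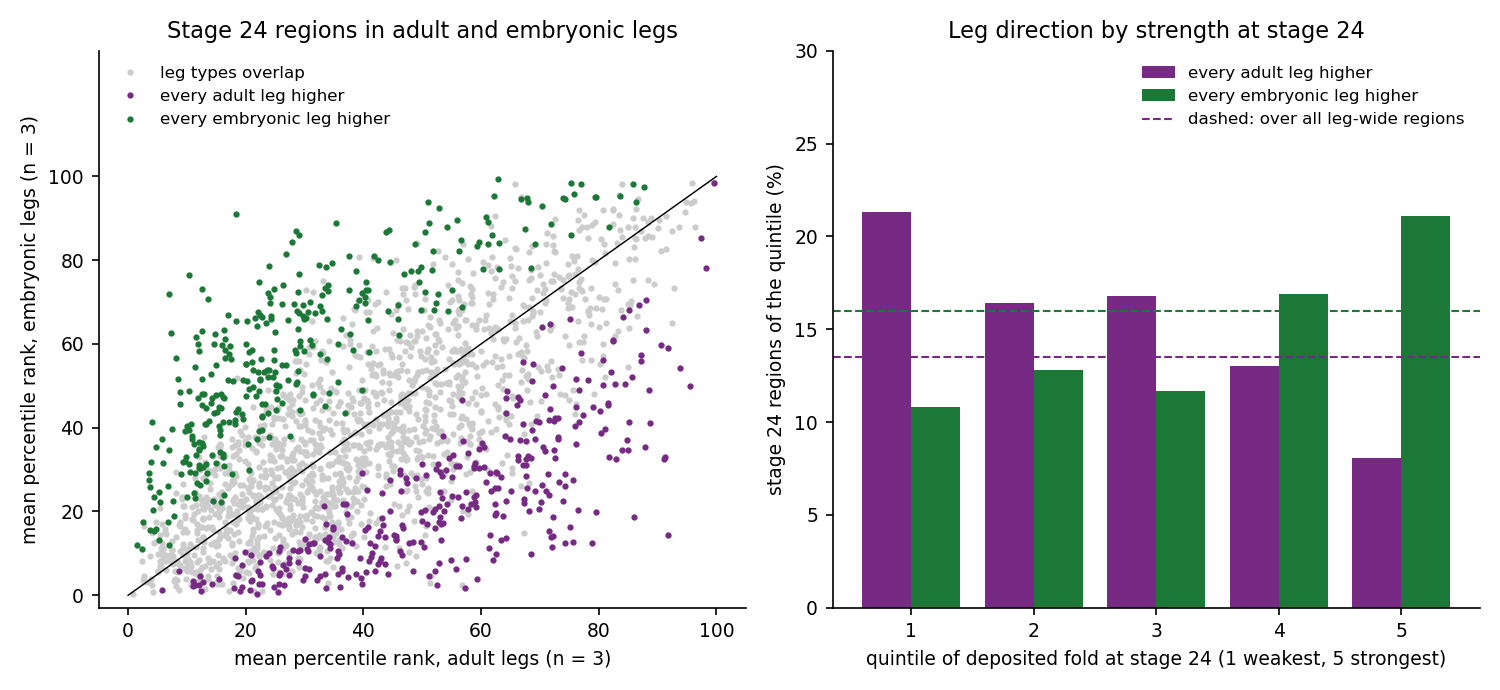
Left, mean percentile rank of the 2228 regions in adult legs (x axis) and embryonic legs (y axis), n = 3 libraries each, coloured by whether all libraries of a leg type ranked above all of the other. Right, share of regions higher in every adult leg and in every embryonic leg (%) by quintile of stage 24 fold. Dashed lines are the shares over all leg-wide regions (13.5% and 16.0%), not split by stage 24 fold. The adult share was 21.3% in the weakest quintile and 8.07% in the strongest.

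The region with the largest rank difference toward adult legs was phaw_50.020523d:8375399-8375827. Its folds were 25.3, 13.3 and 22.4 in adult legs and 5.09, 7.44 and 7.55 in embryonic legs, from 108, 35 and 54 fragments and 8, 10 and 13 fragments at the summit. Every adult library ranked it above every embryonic one, as the naming rule required, and the ranks were 91.8 ± 11.8 and 14.5 ± 7.30 (SD, n = 3 each). Its fold at stage 24 was 5.88, at the 52.8th percentile of that list, and the nearest stage 20 peak lay 4123 bp away.

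The next, phaw_50.283826:13204642-13205222, had folds of 19.2, 13.4 and 15.8 in adult legs and 6.68, 6.14 and 9.60 in embryonic legs. Its stage 24 fold of 14.1 stood at the 95.2nd percentile of that list, the highest of the 6 regions named for adult legs. The third, phaw_50.000203b:48076216-48076724, had folds of 16.0, 15.0 and 12.2 in adult legs and 6.45, 6.57 and 5.89 in embryonic legs. Its stage 24 fold of 4.20 stood at the 14.9th percentile, the lowest of the 6. Over the 6 regions named for adult legs the summits of the leg libraries lay within 23 to 157 bp of each other. None overlapped naked DNA, against 13.6% of all regions higher in every adult leg, so this count is not unusual.

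Toward embryonic legs the largest difference was that of phaw_50.283828b:32040155-32040620. Its folds were 3.61, 5.72 and 6.67 in adult legs and 24.4, 22.7 and 22.4 in embryonic legs, from 5, 8 and 9 fragments and 62, 40 and 54 fragments. The leg types did not overlap, as the naming rule required, with ranks of 18.4 ± 16.0 in adult and 91.1 ± 5.19 in embryonic legs (SD, n = 3 each). Its stage 24 fold was 10.8.

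In phaw_50.283850a:32344105-32344775 the folds were 4.76, 4.47 and 5.24 in adult legs and 15.6, 20.6 and 19.1 in embryonic legs, with 11.4 at stage 24. In phaw_50.282861b:41588747-41589308 they were 6.75, 3.45 and 3.19 and 17.3, 15.8 and 18.6, with 10.7 at stage 24. All 6 regions named for embryonic legs stood at the 83.8th to 96.3rd percentile of the stage 24 list by fold. Among leg-wide regions they were less unusual, with stage 24 folds of 9.63 to 15.0 against a median of 9.87 over those called there. Their adult calls rested on 3 to 24 fragments at the summit, and their leg summits were spread over 57 to 247 bp.

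Across the 2228 regions, stage 24 resembled embryonic legs more than adult legs in the order of strength. Spearman's rho between the stage 24 fold and that of a leg library was 0.37, 0.21 and 0.28 for adult legs 1 to 3 and 0.47, 0.46 and 0.49 for embryonic legs 1 to 3. Among adult legs rho was 0.45 to 0.57, among embryonic legs 0.79 to 0.80, and between the leg types 0.35 to 0.54 over 9 pairs. Regions called at all 3 stages gave 0.41 to 0.46 with adult and 0.66 to 0.69 with embryonic legs, so the order of the leg types was the same there. These correlations run across regions, which share libraries and depth and are not independent replicates. Adult legs 2 and 3, with the lowest values, also had the shortest lists (49502 and 48324 peaks).

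The position of the summit showed the same order. The median distance between the stage 24 summit and the leg summit was 31, 35 and 37 bp in adult legs 1 to 3 and 24, 24 and 21 bp in embryonic legs 1 to 3, and the groups did not overlap. The means were 34.3 ± 3.06 and 23.0 ± 1.73 bp (SD, n = 3 each), a difference of 11.33 bp. The exact permutation p, two-sided, was 0.1, which is the smallest that can be had; this measure was chosen after its values were seen. It was not particular to these regions, since regions of all 3 stages gave 38.0 ± 3.00 and 24.3 ± 1.15 bp. Between libraries of the legs the median distance was 20.0 to 24.0 bp among adult legs, 11.5 to 14.0 bp among embryonic legs and 19.0 to 27.0 bp between them. A further distance was taken from the median summit of all leg libraries to the stage 24 summit. Its median was 32.5 bp in regions higher in every adult leg and 20.5 bp in those higher in every embryonic leg.

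**Figure D5:**
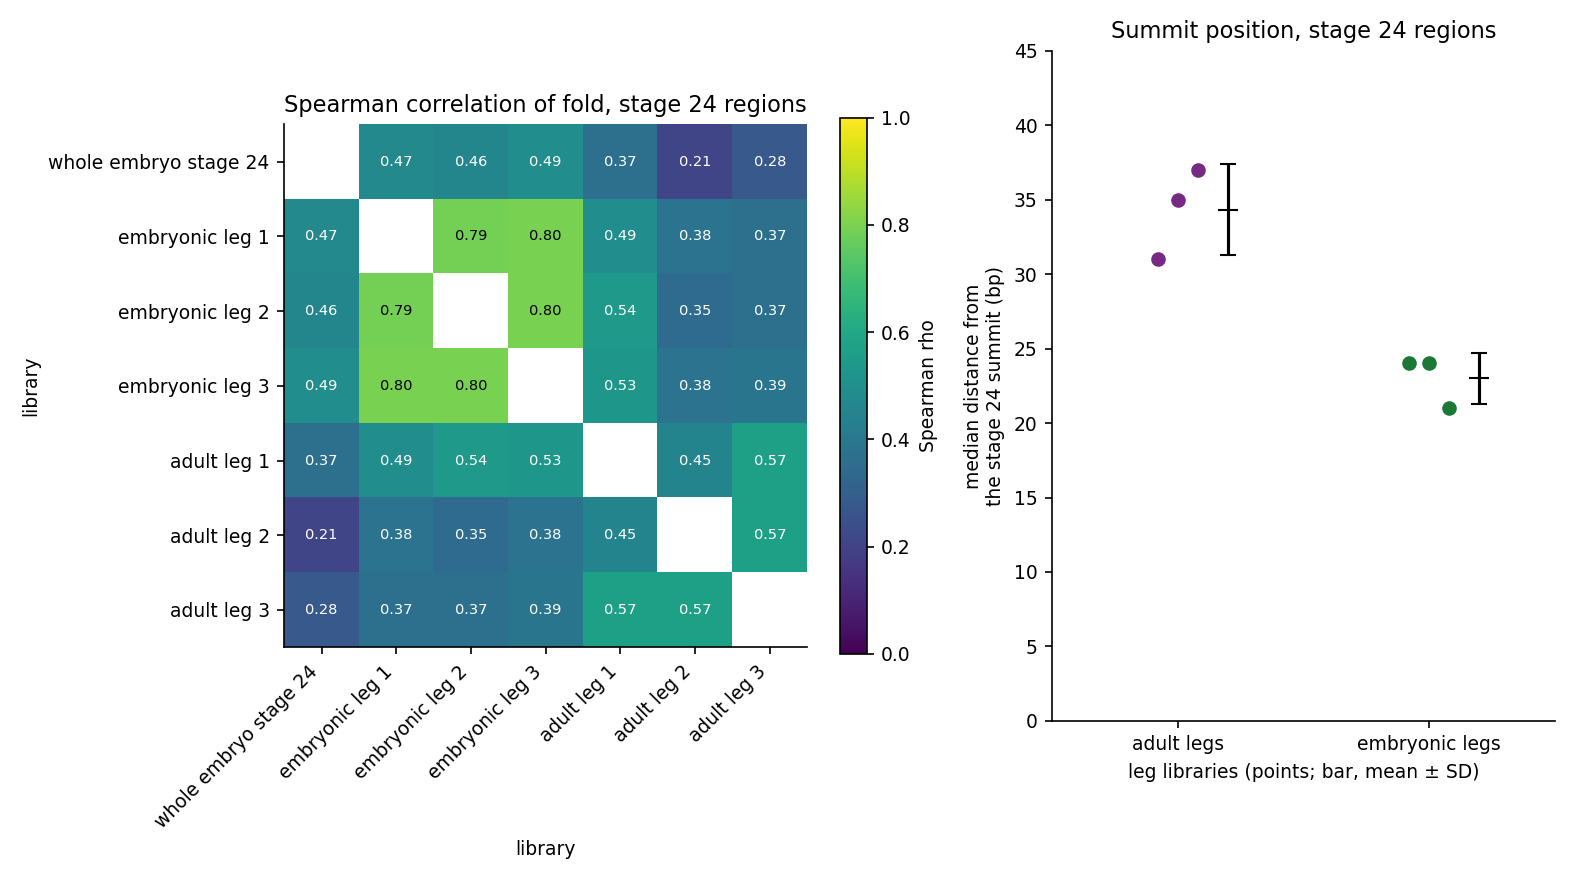
Left, Spearman's rho of deposited fold between libraries over the 2228 regions (colour scale from 0 to 1). Right, median distance (bp) of the leg summit from the stage 24 summit, with a point for each library and the mean ± SD (n = 3); adult legs lie at 31 to 37 bp and embryonic legs at 21 to 24 bp.

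The regions were short and mostly a single peak. Their median width was 489.5 bp (quartiles 401 to 622, range 227 to 1871), against 594 bp for all leg-wide regions and 674 bp for those of all 3 stages, and together they covered 1.17 Mb. In 2113 of them (94.8%) each of the 7 libraries had exactly 1 peak. All 7 summits lay within 100 bp in 1337 regions (60.0%), with a median range of 77 bp. Summits were counted over all peaks of a region in a library, and 97.4% of the regions had 1 peak at stage 24. More than 1 summit was found in 4.49% of the regions at stage 24. The share was 4.94% to 15.5% in adult legs and 9.65% to 13.4% in embryonic legs. Regions of all 3 stages had more than 1 summit, counted in the same way, in 30.8%, 18.7% to 27.5% and 25.5% to 29.3% of cases. Merging adds width with each library that has a peak, so widths of classes called in different numbers of libraries were not tested.

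The regions were spread over 172 of the 649 scaffolds that carried a leg-wide region. On the 54 scaffolds with at least 100 leg-wide regions, they made up 4.92% to 26.6% of these, with a median of 15.5%. Among the scaffolds with the largest shares were phaw_50.283828b with 49 of 184 (26.6%) and phaw_50.283468a with 71 of 267 (26.6%). On phaw_50.283823c, which held 456 leg-wide regions, 61 (13.4%) were called first at stage 24. The median distance to the nearest leg-wide region was 18.5 kb (quartiles 7.85 to 48.2), against 22.2 kb over all leg-wide regions, and to the nearest region of the same kind 128 kb.

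The nearest leg-wide neighbour of a stage 24 region was of the same kind in 446 of 2216 cases, 20.1%, whereas over all leg-wide regions the nearest neighbour was a stage 24 region in 15.4%. For regions called in no whole embryo the share was 20.3%, so the excess was not particular to the stage 24 regions. Another stage 24 region lay within 10 kb of 195 of them (8.75%), against 5.26% for the class of stages 23 and 24 counted in the same way. Adjacent regions had the same leg direction about as often as unrelated ones. Of 100 adjacent pairs less than 10 kb apart 44.0% (34.7% to 53.8%) had rank differences of the same sign, and of 379 pairs less than 50 kb apart 49.3% (44.3% to 54.4%), against 50.1% for unrelated pairs with these shares of signs.

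In windows of 100 kb, 1571 of the 1870 windows that held a stage 24 region held 1, 248 held 2, 45 held 3, 4 held 4 and 2 held 5. The window at 30.9 to 31.0 Mb of phaw_50.282654b held 5 among 11 leg-wide regions, none overlapping naked DNA (12.7% over all stage 24 regions). Their stage 24 folds were 10.9, 7.08, 12.7, 4.46 and 5.77 in order of position, and 1 of the 5, phaw_50.282654b:30931919-30932744, ranked higher in every adult leg. The window at 44.6 to 44.7 Mb of phaw_50.283863b held 5 among 10, of which 2 overlapped a naked DNA peak. Its regions differed widely in strength. At phaw_50.283863b:44639323-44639707 the folds were 10.9, 19.1 and 13.8 in adult legs and 16.3, 18.6 and 19.9 in embryonic legs, with 8.40 at stage 24. At phaw_50.283863b:44620115-44620377 they were 4.54, 5.61 and 4.85 and 3.56, 3.74 and 3.13, with 6.16 at stage 24, the 56.1st percentile of that list.

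Of the 4 windows tied at 4, the first by scaffold name and position was that at 23.6 to 23.7 Mb of phaw_50.282654b. It held 1 region higher in every adult leg and 2 higher in every embryonic leg. The regions at 23633572-23633996 and 23635209-23635569 lay 1212 bp apart. The first had folds of 7.54, 11.4 and 9.54 in adult legs and 6.24, 5.49 and 6.84 in embryonic legs, with 4.86 at stage 24, and ranked higher in every adult leg. The second had folds of 5.21, 4.88 and 5.32 in adult legs and 12.5, 10.6 and 13.9 in embryonic legs, with 12.0 at stage 24, and ranked higher in every embryonic leg. The ranks were 50.3 ± 23.4 and 11.5 ± 2.86 for the first and 12.6 ± 5.26 and 48.0 ± 6.0 for the second in adult and embryonic legs (SD, n = 3 each). These adjacent regions thus ranked in opposite directions between the leg types; the pair was singled out after its values were seen.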

How the data were processed

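Of 10 ATAC-seq libraries, the 9 nuclei lists defined the regions and the naked DNA list served as background. Peaks were called for each library separately, 1 deposited list for each. Per the submitters' processing notes, the tools included MACS2 2.2.7.1, bedtools 2.31.1, Bowtie2 2.5.4, Picard and SAMtools 1.21; their settings and the genome build: not given in the sources used here. The deposited fold of a peak is a ratio of summit to expected pileup, and the deposited p-values and q-values are −log10 values; the deposited score is a display value and was not used, and the deposited summit offsets gave positions. Values of several lists are not on a common scale.

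Rows with the same start and end were taken as 1 peak, and overlapping or touching peaks were merged. A region took the strongest overlapping peak of a list. Whole-number pileups were solved from fold and p-value (tolerance 0.002 in −log10 p) for 99.99% to 100.0% of sampled rows. The lists hold no read totals. Python 3.11.15, numpy 2.4.6, pandas 2.3.3, scipy 1.17.1, matplotlib 3.10.9 and bedtools 2.31.1 were used. On simulated lists the rule recovered 200 of 200 seeded regions and 2000 of 2000 pileups. These lists lacked calls lost to thresholds or depth, and their pileups came from the formula being solved. The recovery therefore checks the code only, not the calls in the real lists. No pair of lists was identical.

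Libraries were compared by exact two-sided permutation (3 against 3). Shares carry 95% Wilson intervals. Named regions were the 10 of highest mean leg rank, the 6 of largest rank difference in each direction without overlap, the 6 of highest stage 24 fold, and those of the 3 windows of 100 kb with the most, ties by scaffold name and start; the few described in the text were the first of each set and, chosen after their values were seen, any that stood apart. The regions and lists were chosen with earlier results of these data known. Alternatives were another q-value, lists of equal length, overlap, merging, margin, scaffold minimum, naked DNA removal, ranking by p-value, the mean, and leaving out each leg library. Sequence features were not analysed.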

Additional observations from a re-analysis of the deposited data

How the results depend on the processing

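The number of regions was 1948 to 2605 with all leg libraries kept, but 1259 with the strongest 48324 peaks of every nuclei list, 1129 of them among the 2228. Leaving out a leg library gave 2256 to 3216 regions, the most without adult leg 2 (3216) and adult leg 3 (3192). The share overlapping naked DNA was 1.31% at a q-value of at most 1e-05 in every list (12.6% over all leg-wide regions), 8.89% where peaks had to cover 50% of the shorter interval (24.9%) and 7.32% at the median leg summit (22.0%), a setting chosen after seeing the data; it stayed below that of all leg-wide regions in every alternative run. The rank difference between adult and embryonic legs turned to −0.38 (exact p = 0.7) with a q-value limit of 1e-05 and to −0.85 (exact p = 0.3) with lists of equal length, and was −0.91 to 2.06 when 1 library was left out (−0.83 without adult leg 2, −0.91 without adult leg 3); over its other alternatives it was 0.68 to 3.77. With the replicate block it was 1.61 (exact sign-flip p = 0.25, the smallest possible with 3 pairs). Same-numbered libraries had correlations of their deviations from the mean of their leg type of −0.11, −0.09 and −0.00. Deviations from a shared mean depend on each other, so these values cannot decide whether the numbers pair libraries. The labels do not say so either. The share higher in every adult leg was 12.9% at a q-value of at most 1e-05 (13.1% over all leg-wide regions), 17.0% without peaks overlapping naked DNA (14.7%), 16.9% when ranked by −log10 p (15.7%) and 18.5% to 24.2% with 1 library left out. The share higher in every embryonic leg was 12.9% without such peaks (16.7%), 16.7% ranked by −log10 p (18.8%) and 17.8% to 22.7% with 1 library left out. Fewer libraries raise these shares by construction, and with 1 library left out the regions were also chosen and ranked anew. The summit distance difference was 8.67 to 17.14 bp in every alternative run. The causes of the other changes were not tested.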
